A study of Mus musculus with 24 samples.

Results

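The 10 genes described here encode 7 ligands of the epidermal growth factor (EGF) family, *Egf*, *Tgfa*, *Hbegf*, *Areg*, *Ereg*, *Btc* and *Epgn*, and 3 receptors, *Egfr*, *Erbb2* and *Erbb3*. They were chosen by name, and each symbol matched 1 gene, giving 10 of the 45706 genes of the deposited count table. These ligands are made as membrane-anchored precursors, and a metalloprotease such as ADAM17 cuts the anchor so that the soluble part can bind EGFR on the same or a neighbouring cell. EGFR then pairs with itself or with ERBB2 or ERBB3 and passes the signal on through RAS and the MAP kinases, a route known in epithelia for growth and repair. iRhom2, encoded by *Rhbdf2*, escorts ADAM17 to the cell surface and helps to select which precursors are cut.

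RNA from the main olfactory epithelium (OE) of *WT* and *iRhom2-/-* mice was sequenced in bulk, which reads the RNA of all cells of the dissected tissue together, so that fewer cells of a type and less RNA per cell cannot be told apart. All mice are labelled as of mixed strain. The *iRhom2-/-* mice, of a 129Sv and C57BL/6 mixed background, carried the *Rhbdf2tm1b(KOMP)Wtsi* allele, which places a LacZ reporter in the gene. The groups were 3 *WT* and 3 *iRhom2-/-* mice of 8 weeks, 3 and 3 of 10 weeks, and 6 and 6 of 5 or 30 weeks. This last set held 3 mice of each age per genotype, but the table does not tie its columns to age, so it was treated as 1 set. Each set carries a core reference number of its own in the labels, so that age and whatever else differed between the core references cannot be told apart.

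The 24 libraries held 25333822 to 48660394 counts each, so that 3 counts, the limit that a count of 0 allows, equalled 0.0633 to 0.113 CPM. CPM are counts per 1000000 counts of the library, scaled by the TMM factor of edgeR, and such limits cover counting error only. Genes that mark the tissue were present in every library: *Omp*, of mature olfactory sensory neurons (OSNs), ran from 3802 to 8300 CPM, *Cyp2g1*, of sustentacular cells, from 2393 to 5518 CPM, and *Krt5*, of horizontal basal cells, from 36.1 to 130 CPM.

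Several libraries stood apart. *Bpifb9b*, placed here on the marker list of Bowman's glands, made up 5.53% of the counts of *WT* mouse 1 of 8 weeks, against 3.24% and 1.92% in mice 2 and 3 of that group. It made up 13.6% of the counts of *iRhom2-/-* mouse 2 of 10 weeks, against 0.593% and 0.0524% in mice 1 and 3. *WT* mouse 3 of 8 weeks was labelled female but had 0.221 CPM of *Xist* and 48.9 CPM of the Y-linked *Ddx3y*, while the other 23 libraries matched their sex labels. *WT* mouse 1 of 8 weeks and *iRhom2-/-* mouse 2 of 10 weeks are called the 2 libraries rich in *Bpifb9b* below. The *Egf* differences, and the other values named as moving with these 2 libraries, are given with and without them. Leaving them out did not even out *Bpifb9b* between genotypes at 8 weeks, where it made up 0.416%, 0.0910% and 0.174% of the counts of *iRhom2-/-* mice 1 to 3.

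The targeted gene was checked first. *Rhbdf2* was at 21.0, 23.9 and 20.4 CPM in *WT* mice 1 to 3 of 8 weeks and at 11.2, 13.5 and 12.8 CPM in the *iRhom2-/-* mice. The levels at 10 weeks were 20.9, 21.0 and 21.3 CPM in *WT* and 9.56, 10.2 and 7.06 CPM in *iRhom2-/-* mice. In the set of 5 or 30 weeks the lowest, median and highest levels were 19.3, 21.9 and 25.1 CPM in *WT* and 7.66, 10.1 and 12.4 CPM in *iRhom2-/-* mice. All 12 *iRhom2-/-* libraries lay below all 12 *WT* libraries, and each still held reads of the gene. The paper reports that these mice lack functional iRhom2 protein, while the first exons are still transcribed. Which exons the counted reads came from is not given. Over 24 mice the difference in log2 level was -1.08 (SE 0.087, adjusted p 9.78e-08). It was -0.80 at 8 weeks (adjusted p 0.0297), -1.22 at 10 weeks (adjusted p 0.0404) and -1.15 at 5 or 30 weeks (adjusted p 8.01e-04). With 3 mice per group the call depended on single libraries: with each left out in turn, *Rhbdf2* was called in 3 of 6 fits at 8 weeks and in 3 of 6 at 10 weeks, with the difference negative in each.

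Levels of different genes were compared per length, as CPM per kilobase of exon (CPM per kb). *Erbb3* and *Erbb2* led, with medians of 14.1 and 10.2 CPM per kb over 24 libraries. *Tgfa* came next, at 5.45 CPM per kb, ahead of the remaining receptor, *Egfr*, at 1.55. The other ligands were *Egf* at 0.970, *Hbegf* at 0.965, *Btc* at 0.916 and *Areg* at 0.840. *Ereg* was at 0.0066 CPM per kb and *Epgn* at 0. *Erbb3* exceeded *Erbb2* in 23 of 24 libraries, *Erbb2* exceeded *Tgfa* in 24 and *Tgfa* exceeded *Egfr* in 24. *Egfr* exceeded *Egf* in 20 libraries. The next neighbours overlapped: *Egf* was above *Hbegf* in 12 of 24 libraries, *Hbegf* above *Btc* in 16 and *Btc* above *Areg* in 13, so these 4 ligands had no fixed order. *Areg* was above *Ereg* in 24 of 24.

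The first 4 places were the same in both genotypes. In *WT* mice the medians after *Egfr*, at 1.59 CPM per kb, were 1.124 for *Egf*, 1.06 for *Hbegf*, 1.00 for *Areg* and 0.980 for *Btc*. In *iRhom2-/-* mice, with *Egfr* at 1.54 CPM per kb, they were 0.947 for *Hbegf*, 0.905 for *Btc*, 0.786 for *Egf* and 0.757 for *Areg*. *Tgfa* made up 49.4%, 54.4% and 65.9% (lowest, median, highest) of the summed ligand CPM per kb in *WT* mice and 54.1%, 60.6% and 65.0% in *iRhom2-/-* mice. These ranges overlapped, but within the set of 5 or 30 weeks the share ran from 49.4% to 54.8% in *WT* and from 56.2% to 65.0% in *iRhom2-/-* mice, with no overlap. At 8 weeks it was 50.5%, 65.9% and 62.7% in *WT* and 61.8%, 61.2% and 60.1% in *iRhom2-/-* mice. At 10 weeks it was 57.5%, 64.6% and 59.9% in *WT* and 62.6%, 54.1% and 57.6% in *iRhom2-/-* mice. The genotypes overlapped at both of these ages. The ratio of summed receptors to summed ligands had a median of 2.53 in *WT* (1.84 to 3.52) and 2.83 in *iRhom2-/-* mice (2.20 to 3.55). These ranges overlapped too, but not at 8 weeks, where the ratio was 2.62, 2.63 and 2.74 in *WT* and 2.85, 2.88 and 2.90 in *iRhom2-/-* mice. At 10 weeks the ratio was 3.13, 3.31 and 3.52 in *WT* and 3.12, 3.02 and 3.55 in *iRhom2-/-* mice. At 5 or 30 weeks it ran from 1.84 to 2.45 in *WT* and from 2.20 to 2.82 in *iRhom2-/-* mice. The genotypes overlapped in both of these sets. Neither difference was tested.

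**Figure D1:**
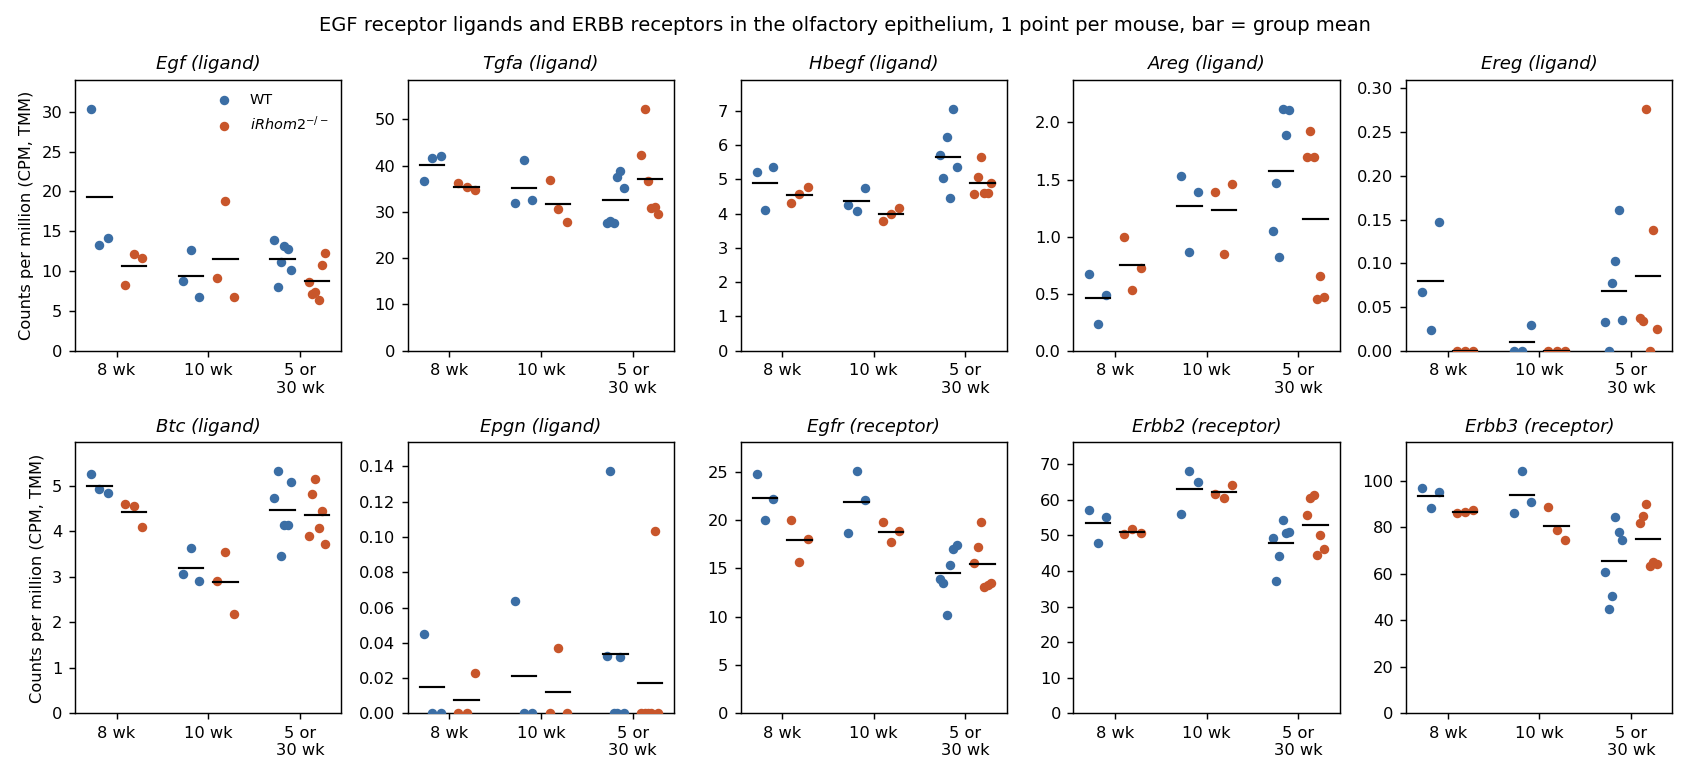
Level of each of the 10 members in CPM (vertical axes, each with its own range) in the 3 sets, with 1 point per mouse, *WT* in blue and *iRhom2-/-* in orange, and a bar at each group mean. *Egf* of *WT* mouse 1 of 8 weeks, at 30.4 CPM, lies above all other points of its panel, and *Ereg* and *Epgn* stay under 0.3 CPM.

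Each genotype comparison asked whether loss of iRhom2 changed transcript levels of the ligands and receptors. A gene was called when the quasi-likelihood test of edgeR gave it an adjusted p under 0.1, with adjustment over all genes tested. In each comparison 8 of the 10 members passed the filter on low counts, and *Ereg* and *Epgn* did not. Across all 24 mice, with set as a term, edgeR called 0 of 8 members, beside 1.97% of 20763 genes tested. At an unadjusted p under 0.05 it found 1 of 8 members, *Hbegf*, beside 12.4% of all genes, and DESeq2 called 0 of 8, beside 3.97%.

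At 8 weeks edgeR again called 0 of 8 members, beside 4.98% of 19335 genes. The unadjusted p was under 0.05 for 3 of 8 members, *Egf*, *Tgfa* and *Egfr*, beside 19.8% of all genes, and DESeq2 called 1 member, *Egf*, beside 11.4% of all genes. Where groups are said not to overlap, at this age or another, the values are only described. The share of all genes without overlap is not given, so no result about the members is read from it. At 10 weeks edgeR called 0 of 8 members, beside 0.197% of 18764 genes, with 0 of 8 at an unadjusted p under 0.05 beside 7.79% of all genes and 0 called by DESeq2 beside 1.54%. At 5 or 30 weeks edgeR called 0 of 8 members, beside 1.07% of 18481 genes, with 1 of 8, *Egf*, at an unadjusted p under 0.05 beside 14.2% of all genes and 0 called by DESeq2 beside 4.96%.

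Whether the genotype difference itself varied between the sets was tested with an interaction term. By edgeR it was called for 0 of 8 members, beside 0.0482% of 20763 genes. At an unadjusted p under 0.05 there were 0 of 8 members, beside 12.7% of all genes, and DESeq2 called 0 of 8, beside 2.38%. The smallest unadjusted p was 0.0806, for *Egf* (adjusted p 0.446). The unlike signs between sets given for single members therefore were not called as differences between sets.

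In direction, 5 of 8 members were lower in *iRhom2-/-* mice over 24 mice, 7 of 8 at 8 weeks, 7 of 8 at 10 weeks and 4 of 8 at 5 or 30 weeks. Of all genes tested, 49.7%, 49.8%, 51.4% and 49.7% were higher in *iRhom2-/-* mice in the same order. Several members moved together between mice, as given below, so these counts are not of independent genes. The median log2 difference of the 5 ligands tested was -0.11 over 24 mice, -0.18 at 8 weeks, -0.11 at 10 weeks and -0.22 at 5 or 30 weeks. For the 3 receptors it was 0.010 over 24 mice, -0.11 at 8 weeks, -0.20 at 10 weeks and 0.13 at 5 or 30 weeks. The median of all genes tested was -0.0011, -0.0013, 0.0068 and -0.0015 in the same order.

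Marker lists of cell types were read beside the members. The mature OSN list, 8 genes led by *Omp*, summed to 9487, 11411 and 11514 CPM in *WT* and 13870, 15696 and 17314 CPM in *iRhom2-/-* mice of 8 weeks. The groups did not overlap, and 8 of 8 genes were higher in *iRhom2-/-* mice (median log2 difference 0.49), with 8 at an unadjusted p under 0.05 (19.8% of all genes), 2 called by edgeR (4.98%) and 7 by DESeq2 (11.4%). With a library left out edgeR called 0 to 5 of them. At 10 weeks 8 of 8 were lower (median -0.16), and at 5 or 30 weeks 7 of 8 were higher (median 0.038).

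The macrophage list, 7 genes led by *Csf1r*, summed to 277, 134 and 153.4 CPM in *WT* and 153.5, 90.7 and 111 CPM in *iRhom2-/-* mice of 8 weeks. The groups overlapped, and edgeR called 0 of 7 genes (4.98% of all genes), with 1 at an unadjusted p under 0.05 (19.8%), while DESeq2 called 1 (11.4%). The lymphocyte list, 6 genes led by *Cd79a*, summed to 38.6, 8.31 and 10.5 CPM in *WT* and 6.69, 7.17 and 3.90 CPM in *iRhom2-/-* mice. These groups did not overlap, and edgeR called 2 of 6 genes, with 3 at an unadjusted p under 0.05, and DESeq2 3, beside the same shares of all genes. With a library left out edgeR called 0 or 1 of these 6 lymphocyte genes. All genes of both lists were lower in *iRhom2-/-* mice of 8 weeks, but *WT* mouse 1 carried much of the size of the difference: the median log2 difference was -0.67 for macrophages and -2.39 for lymphocytes, and without that mouse it was -0.28 and -1.05. At 10 weeks 6 of 7 and 4 of 6 genes were higher in *iRhom2-/-* mice, and at 5 or 30 weeks 7 of 7 and 6 of 6 were lower. Over 24 mice 6 of 6 lymphocyte genes had an unadjusted p under 0.05 (12.4% of all genes), with a median of -1.12, 0 called by edgeR and 3 by DESeq2 (3.97%). In the set of 5 or 30 weeks, which does not hold *WT* mouse 1 of 8 weeks, it was 4 of 6 (14.2%), with a median of -1.23, 0 called by edgeR and 1 by DESeq2 (4.96%).

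The ensheathing glia list, 5 genes led by *Fabp7*, summed to 201, 238 and 259 CPM in *WT* and 319.8, 322 and 285 CPM in *iRhom2-/-* mice of 8 weeks. The groups did not overlap, and 5 of 5 genes were higher in *iRhom2-/-* mice (median 0.36), with 4 at an unadjusted p under 0.05 (19.8% of all genes), 1 called by edgeR (4.98%) and 3 by DESeq2 (11.4%). With a library left out edgeR called 0 or 1 of them at 8 weeks. At 10 weeks and at 5 or 30 weeks 5 of 5 were lower (medians -0.51 and -0.31). In each of these sets 3 of 5 had an unadjusted p under 0.05 (7.79% and 14.2% of all genes). There edgeR called 0 and DESeq2 2 (1.54% and 4.96%). The sums at 10 weeks were 383, 289 and 357 CPM in *WT* and 196, 192 and 264 CPM in *iRhom2-/-* mice, with no overlap. The list of olfactory bulb neurons, 5 genes led by *Eomes*, summed to 12.6, 11.0 and 13.9 CPM in *WT* and 31.9, 25.5 and 14.7 CPM in *iRhom2-/-* mice of 8 weeks. These groups did not overlap either, and the median was 1.87 with 4 of 5 genes higher, 1 at an unadjusted p under 0.05, 0 called by edgeR and 1 by DESeq2. With a library left out the median ran from 0.99, without *iRhom2-/-* mouse 1, to 2.56, without *WT* mouse 1. At 10 weeks it was -2.04, with 4 of 5 genes lower, 3 at an unadjusted p under 0.05, 0 called by edgeR and 2 by DESeq2. At 5 or 30 weeks it was -0.97, with 5 of 5 lower, 1 at that p and 0 called by edgeR or DESeq2. The horizontal basal cell list, 6 genes led by *Krt5*, overlapped between genotypes at 8 weeks, with 4 of 6 genes lower (median -0.26). Of these 6 genes 3 had an unadjusted p under 0.05, with 0 called by edgeR and 3 by DESeq2. At 10 weeks genotypes were apart for this list and for fibroblasts, as given below. So was the sustentacular list, led by *Cyp2g1*, at 8091, 8011 and 8448 CPM in *WT* and 7482, 6888 and 6836 CPM in *iRhom2-/-* mice. No gene of these lists was at 0 in all libraries, and their part in the lower levels of members at 8 and 10 weeks was not tested.

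**Figure D2:**
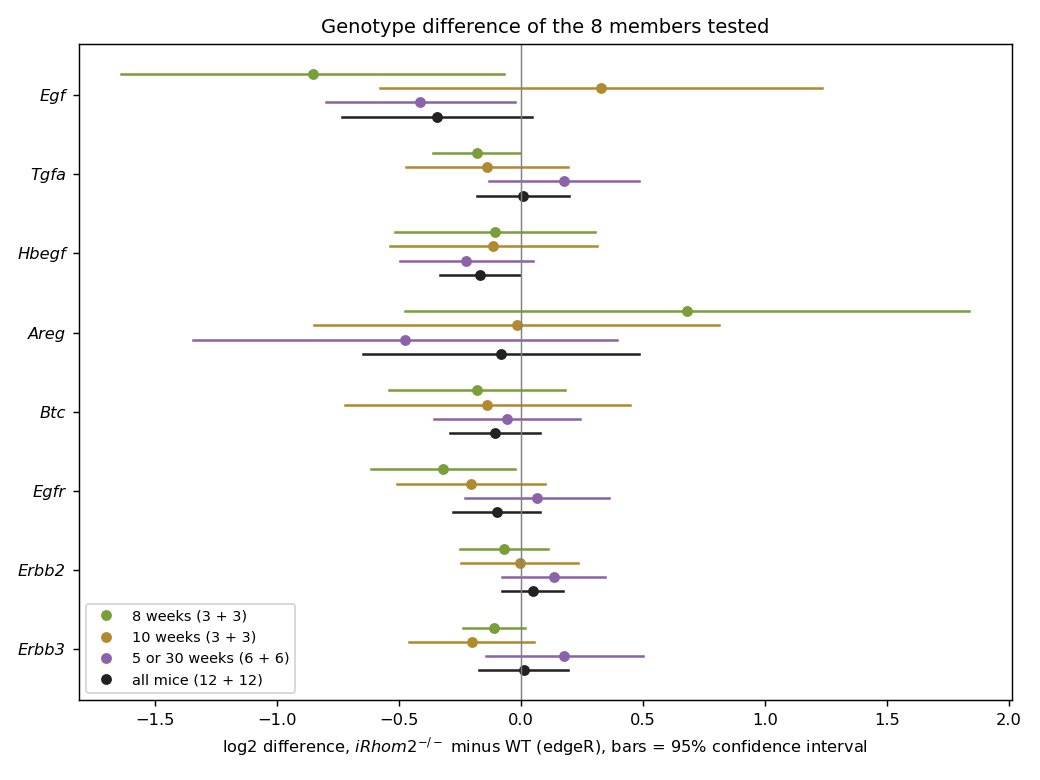
Log2 difference, *iRhom2-/-* minus *WT*, of the 8 members tested in each comparison (colours), with 95% confidence intervals as bars. Intervals of *Egf*, *Tgfa* and *Egfr* at 8 weeks, *Egf* at 5 or 30 weeks and *Hbegf* over 24 mice end below 0, before adjustment for the number of genes.

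*Egf* encodes the founding ligand of the family, a large precursor with a single active EGF unit. Its levels at 8 weeks were 30.4, 13.3 and 14.1 CPM in *WT* mice 1 to 3 and 8.19, 12.2 and 11.7 CPM in *iRhom2-/-* mice. The groups did not overlap, and *WT* mouse 1, a library rich in *Bpifb9b*, was the highest of all 24. The log2 difference was -0.85 (SE 0.33, unadjusted p 0.0368, adjusted p 0.2202), and DESeq2 gave an adjusted p of 0.0568. Without *WT* mouse 1 it was -0.37 (adjusted p 0.337). At 10 weeks *Egf* was at 8.70, 12.6 and 6.69 CPM in *WT* and 9.11, 18.8 and 6.73 CPM in *iRhom2-/-* mice. These groups overlapped, and the highest was *iRhom2-/-* mouse 2, the other library rich in *Bpifb9b*. The difference was 0.33 (SE 0.39, adjusted p 0.903), and without that mouse it was -0.23 (adjusted p 0.971).

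At 5 or 30 weeks the lowest, median and highest *Egf* levels were 8.05, 11.9 and 13.9 CPM in *WT* and 6.30, 7.99 and 12.2 CPM in *iRhom2-/-* mice. The ranges overlapped, with 5 of 6 *iRhom2-/-* libraries below the *WT* mean. The log2 difference was -0.41 (SE 0.18, unadjusted p 0.0385, adjusted p 0.328). Over 24 mice it was -0.34 (SE 0.19, adjusted p 0.494), with 10 of 12 *iRhom2-/-* libraries below the *WT* mean of their set. Without both libraries rich in *Bpifb9b* it was -0.36 (adjusted p 0.193).

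*Egf* moved with *Bpifb9b*, a gene of the marker list of Bowman's glands, 5 genes with none at 0 in all libraries. The list summed to 61425, 32536 and 19525 CPM in *WT* and 4736, 1955 and 2855 CPM in *iRhom2-/-* mice of 8 weeks. At 10 weeks it summed to 5247, 6915 and 1870 CPM in *WT* and 7296, 173190 and 2105 CPM in *iRhom2-/-* mice. At 5 or 30 weeks the lowest, median and highest sums were 4699, 14889 and 27437 CPM in *WT* and 1432, 8115 and 18819 CPM in *iRhom2-/-* mice. The sums were apart at 8 weeks and overlapped in the other sets, and where they were high they read mainly 1 gene: *Bpifb9b* alone was at 60309 CPM in *WT* mouse 1 of 8 weeks and at 171916 CPM in *iRhom2-/-* mouse 2 of 10 weeks, but at 319 CPM in *WT* mouse 3 of 10 weeks. *Sox9*, *Aqp5* and *Muc5b*, also on the list, followed it only in part. At 8 weeks edgeR and DESeq2 each called 1 of the 5 genes, *Bpifb9b*, at -4.08 (adjusted p by edgeR 0.0426). Without *WT* mouse 2, or without *iRhom2-/-* mouse 2 or 3, edgeR called 0 of the 5. Of this list 3 of 5 were higher in *iRhom2-/-* mice (median 0.0073). *Sox9*, at 48.2, 34.003 and 31.1 CPM in *WT* and 35.6, 41.2 and 37.4 CPM in *iRhom2-/-* mice, overlapped between genotypes, as did *Aqp5* and *Muc5b*. In *WT* mouse 1 of 8 weeks *Sox9*, *Aqp5*, at 316 CPM, and *Muc5b*, at 692 CPM, were the highest of its group. In *iRhom2-/-* mouse 2 of 10 weeks *Aqp5*, at 499.9 CPM, was the highest of its group, while *Sox9*, at 32.6 CPM, and *Muc5b*, at 676 CPM, were the lowest.

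To see what moved together between mice of 1 group, the mean of each set and genotype was taken off the log2 levels before they were correlated. So treated, *Egf* and the sum of the Bowman's gland list had a Pearson r of 0.70 over 24 libraries (Spearman rho 0.63). Where high, that sum read mainly *Bpifb9b*, so the r is not a measure of the glands as such. The r was 0.77 in the 12 libraries of 8 and 10 weeks, 0.61 in the 12 of 5 or 30 weeks and 0.54 without the 2 libraries rich in *Bpifb9b*. Since 5 and 30 weeks form 1 group per genotype, a difference between those ages remains in each r that holds that set. Several lists of blood and immune cells moved with *Egf* as well, mainly at 8 and 10 weeks. For lymphocytes the r was 0.63 over 24 libraries, 0.84 at 8 and 10 weeks, 0.19 at 5 or 30 weeks and 0.25 without the 2 libraries. For the neutrophil list the same values were 0.60, 0.81, 0.13 and 0.41, and for erythrocytes 0.62, 0.72, 0.31 and 0.33. For macrophages they were lower, at 0.32, 0.39, 0.14 and -0.24. The ensheathing glia list ran the other way, at -0.37, -0.77, -0.076 and -0.24, as did the mature OSN list, at -0.41, -0.64, -0.33 and -0.25. *WT* mouse 1 of 8 weeks had the highest sums of all 24 libraries for lymphocytes (38.6 CPM), macrophages (277 CPM), neutrophils (1872 CPM, 6 genes led by *Ltf*) and fibroblasts (8973 CPM, 5 genes led by *Col1a1*). The neutrophil sum was led by *Ltf* in every group, and at 8 weeks 2 of its 6 genes were higher and 4 lower in *iRhom2-/-* mice. Which cells that sum reads, and the part of these cell types in the *Egf* difference, were not tested. The exons of *Egf* also share 500 bases with *6330410L21Rik* and 607 bases with *Gm42697* on the opposite strand, and whether the counts are stranded is not stated.

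*Tgfa* encodes transforming growth factor alpha, the ligand with the highest level in these libraries. Levels at 8 weeks were 36.6, 41.7 and 42.2 CPM in *WT* and 36.2, 35.5 and 34.7 CPM in *iRhom2-/-* mice. Each *iRhom2-/-* library lay below every *WT* library. The log2 difference was -0.18 (SE 0.075, unadjusted p 0.0451, adjusted p 0.241). At 10 weeks *Tgfa* was at 31.9, 41.2 and 32.6 CPM in *WT* and 36.8, 30.6 and 27.7 CPM in *iRhom2-/-* mice. The groups overlapped, and the difference was -0.14 (adjusted p 0.890), or -0.015 without *WT* mouse 2. In the set of 5 or 30 weeks its lowest, median and highest levels were 27.5, 31.7 and 39.0 CPM in *WT* and 29.6, 33.9 and 52.3 CPM in *iRhom2-/-* mice. The ranges overlapped, with 2 *iRhom2-/-* libraries above every *WT* library, and the difference was 0.18 (adjusted p 0.621), or 0.056 to 0.24 with 1 library left out. Over 24 mice it was 0.0083 (SE 0.090, adjusted p 0.985), and over the 12 mice of 8 and 10 weeks alone it was -0.16.

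*Hbegf* encodes heparin-binding EGF-like growth factor. Its levels at 8 weeks were 5.23, 4.10 and 5.35 CPM in *WT* and 4.31, 4.56 and 4.78 CPM in *iRhom2-/-* mice. Levels at 10 weeks were 4.25, 4.08 and 4.74 CPM in *WT* and 3.80, 3.98 and 4.17 CPM in *iRhom2-/-* mice. Groups overlapped at both ages. The lowest, median and highest levels at 5 or 30 weeks were 4.45, 5.53 and 7.06 CPM in *WT* and 4.57, 4.75 and 5.64 CPM in *iRhom2-/-* mice. The ranges overlapped. All 12 *iRhom2-/-* libraries lay below the *WT* mean of their set, and 2 lay below every *WT* library of their set. Over 24 mice the log2 difference was -0.17 (SE 0.080, 95% confidence interval -0.33 to -0.0022, unadjusted p 0.0472, adjusted p 0.396). It was -0.11 at 8 weeks, -0.11 at 10 weeks and -0.22 at 5 or 30 weeks. With 1 library left out it ranged from -0.22 to -0.037 at 8 weeks and from -0.16 to -0.053 at 10 weeks.

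*Areg* encodes amphiregulin, a ligand that binds EGFR less tightly than EGF does. In the set of 8 weeks it was at 0.673, 0.231 and 0.491 CPM in *WT* and 0.992, 0.531 and 0.725 CPM in *iRhom2-/-* mice. The groups overlapped, with 2 of 3 *iRhom2-/-* libraries above every *WT* library. The log2 difference was 0.68 (SE 0.49, adjusted p 0.476), and with 1 library left out it ran from 0.36, without *WT* mouse 2, to 1.04, without *WT* mouse 1. At 10 weeks *Areg* was at 1.53, 0.867 and 1.39 CPM in *WT* and 1.39, 0.848 and 1.46 CPM in *iRhom2-/-* mice. These values interleaved, and the difference was -0.018 (adjusted p 0.994). Among mice of 5 or 30 weeks the lowest, median and highest levels were 0.823, 1.68 and 2.12 CPM in *WT* and 0.453, 1.18 and 1.92 CPM in *iRhom2-/-* mice. Of the *iRhom2-/-* libraries 3 lay at 0.453 to 0.655 CPM, below every *WT* library, and 3 at 1.69 to 1.92 CPM, within the *WT* range. The difference was -0.48 (SE 0.40, adjusted p 0.641), or -0.68 to -0.31 with 1 library left out. Over 24 mice it was -0.081 (SE 0.27, adjusted p 0.947), and over the mice of 8 and 10 weeks alone it was 0.32.

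*Btc* encodes betacellulin, which binds EGFR and ERBB4. Levels at 8 weeks were 5.25, 4.93 and 4.83 CPM in *WT* and 4.60, 4.56 and 4.10 CPM in *iRhom2-/-* mice. Each *iRhom2-/-* library lay below every *WT* library, and the log2 difference was -0.18 (SE 0.15, adjusted p 0.553). The levels at 10 weeks were 3.07, 3.63 and 2.90 CPM in *WT* and 2.91, 3.54 and 2.19 CPM in *iRhom2-/-* mice. The groups overlapped, and all 6 values lay below those of 8 weeks. In mice of 5 or 30 weeks the lowest, median and highest levels were 3.45, 4.43 and 5.31 CPM in *WT* and 3.72, 4.26 and 5.15 CPM in *iRhom2-/-* mice. The ranges overlapped. Over 24 mice the difference was -0.11 (SE 0.089, adjusted p 0.698), with 9 of 12 *iRhom2-/-* libraries below the *WT* mean of their set. With group means removed, *Btc* and *Bpifb9b* had an r of 0.20 over 24 libraries, 0.90 in the 12 of 8 and 10 weeks, -0.45 in the 12 of 5 or 30 weeks and -0.11 without the 2 libraries rich in *Bpifb9b*. For *Egf* and *Bpifb9b* the same values were 0.66, 0.74, 0.55 and 0.53. Lists of other cell types moved with *Btc* as well. In the same order the r was 0.59, 0.73, 0.47 and 0.57 for lymphocytes and 0.53, 0.71, 0.35 and 0.50 for the neutrophil list led by *Ltf*. It was 0.46, 0.87, -0.26 and 0.14 for erythrocytes, and -0.18, -0.76, 0.062 and -0.058 for the mature OSN list. The part of glands and of these cell types in the *Btc* levels was not tested.

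*Ereg* and *Epgn*, which encode epiregulin and epigen, were at the limit of detection. *Ereg* had 24 counts in all over the 12 *WT* libraries and 15 over the 12 *iRhom2-/-* libraries, and 20 of the 24 libraries held at most 3 counts. At 8 weeks it had 3, 1 and 6 counts in *WT* and 0, 0 and 0 in *iRhom2-/-* mice, and at 10 weeks 0, 0 and 1 in *WT* and 0, 0 and 0 in *iRhom2-/-* mice. Among mice of 5 or 30 weeks *iRhom2-/-* libraries reached 8 counts and *WT* libraries 5, so the groups overlapped. The *iRhom2-/-* mean minus the *WT* mean was -0.0136 CPM (two-sided exact permutation test within sets, p 0.639). *Epgn* had 10 counts in *WT* and 5 in *iRhom2-/-* libraries, with at most 4 in any library. Its difference was -0.0123 CPM (same exact test, p 0.431). A genotype difference in either ligand was not detectable at this depth.

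*Areg*, *Ereg*, *Btc* and *Epgn* lie within 1 stretch of chromosome 5, from 91027464 to 91402994 in GRCm38, yet their levels were unlike: *Areg* and *Btc* were detected in every library, whereas *Ereg* was at 0 in 3 *WT* and 7 *iRhom2-/-* libraries and *Epgn* in 7 and 9. *Areg* and *Btc* had an r of 0.13 over 24 libraries, -0.44 in those of 8 and 10 weeks and 0.42 in those of 5 or 30 weeks. *Egf* lies on chromosome 3, *Tgfa* on 6 and *Hbegf* on 18. *Egfr* and *Erbb2* lie on chromosome 11, as does *Rhbdf2*, and *Erbb3* lies on 10. On the opposite strand, exons of *Tgfa* share 118 bases with *Gm43917*, those of *Ereg* 141 bases with *Gm19610* and those of *Erbb2* 9 bases with *Mien1*.

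*Egfr* encodes the receptor that all 7 ligands bind. Its levels at 8 weeks were 24.7, 19.95 and 22.2 CPM in *WT* and 19.95, 15.6 and 18.1 CPM in *iRhom2-/-* mice. Each *iRhom2-/-* library lay below every *WT* library, though *iRhom2-/-* mouse 1 and *WT* mouse 2 were equal at this rounding. The log2 difference was -0.32 (SE 0.13, unadjusted p 0.0370, adjusted p 0.2205). At 10 weeks *Egfr* was at 18.7, 25.01 and 22.02 CPM in *WT* and 19.8, 17.7 and 18.9 CPM in *iRhom2-/-* mice. The groups overlapped, and the difference was -0.21 (SE 0.13, adjusted p 0.796), or -0.31 to -0.10 with 1 library left out. In the set of 5 or 30 weeks its lowest, median and highest levels were 10.2, 14.6 and 17.5 CPM in *WT* and 13.1, 14.5 and 19.8 CPM in *iRhom2-/-* mice. The ranges overlapped and the difference was 0.064 (adjusted p 0.882). Over 24 mice it was -0.10 (SE 0.086, adjusted p 0.711), or -0.26 over the mice of 8 and 10 weeks alone (adjusted p 0.288), with 9 of 12 *iRhom2-/-* libraries below the *WT* mean of their set.

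*Erbb2* encodes the receptor that binds no ligand of its own and acts as a partner. Its levels at 8 weeks were 57.2, 47.8 and 55.2 CPM in *WT* and 50.4, 51.7 and 50.7 CPM in *iRhom2-/-* mice. In the set of 10 weeks it was at 56.0, 68.0 and 65.0 CPM in *WT* and 61.7, 60.5 and 64.1 CPM in *iRhom2-/-* mice. In both sets the *iRhom2-/-* values lay inside the *WT* range. The lowest, median and highest levels at 5 or 30 weeks were 37.2, 49.995 and 54.3 CPM in *WT* and 44.4, 53.0 and 61.3 CPM in *iRhom2-/-* mice. The ranges overlapped, with 3 of 6 *iRhom2-/-* libraries above every *WT* library. The log2 difference was -0.071 at 8 weeks, -0.0061 at 10 weeks and 0.13 at 5 or 30 weeks, and 0.047 over 24 mice (SE 0.061, adjusted p 0.832). With 1 library left out it ranged from -0.15 to -0.028 at 8 weeks, 0.076 to 0.18 at 5 or 30 weeks and 0.015 to 0.067 over 24 mice.

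*Erbb3* encodes a receptor with little kinase activity of its own, which signals when paired, chiefly with ERBB2. Levels at 8 weeks were 96.9, 88.1 and 95.3 CPM in *WT* and 86.2, 86.6 and 87.2 CPM in *iRhom2-/-* mice. Each *iRhom2-/-* library lay below every *WT* library, and the log2 difference was -0.11 (SE 0.055, adjusted p 0.306). Levels at 10 weeks were 86.2, 104 and 90.9 CPM in *WT* and 88.5, 78.7 and 74.6 CPM in *iRhom2-/-* mice. The groups overlapped, and the difference was -0.20 (SE 0.11, adjusted p 0.754), or -0.28 to -0.12 with 1 library left out. Among mice of 5 or 30 weeks the lowest, median and highest levels were 44.8, 67.6 and 84.5 CPM in *WT* and 63.4, 73.4 and 89.7 CPM in *iRhom2-/-* mice. The ranges overlapped, with 2 *iRhom2-/-* libraries above every *WT* library. The difference was 0.18 (adjusted p 0.638), or 0.093 to 0.26 with 1 library left out, and over 24 mice it was 0.010 (SE 0.089, adjusted p 0.982).

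*Erbb3* and several other members moved with cell-type marker lists, mainly within the set of 5 or 30 weeks. That set pools mice of 5 and of 30 weeks, so a difference between those ages remains in each r that holds it. The immature neuron list, 6 genes led by *Ncam1* with none at 0 in all libraries, summed to 1269, 1083 and 1015 CPM in *WT* and 1164, 1205 and 1261 CPM in *iRhom2-/-* mice of 8 weeks. At 10 weeks it summed to 1221, 1130 and 1124 CPM in *WT* and 1354, 1058 and 1297 CPM in *iRhom2-/-* mice. At 5 or 30 weeks the lowest, median and highest sums were 610, 780 and 1072 CPM in *WT* and 638, 950 and 1315 CPM in *iRhom2-/-* mice. Genotypes overlapped in each set, and the libraries of 5 or 30 weeks were spread most. With group means removed, the r of this sum with *Erbb3* was -0.84 over 24 libraries, 0.14 in the 12 of 8 and 10 weeks and -0.92 in the 12 of 5 or 30 weeks. For *Areg* the same values were -0.70, 0.53 and -0.93, for *Egfr* they were -0.70, 0.19 and -0.87, and for *Tgfa* -0.75, -0.18 and -0.84.

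The list of microvillar tuft-like cells, 5 genes led by *Trpm5*, had an r with *Erbb3* of 0.89 over 24 libraries, 0.39 in those of 8 and 10 weeks and 0.92 in those of 5 or 30 weeks. Its sums at 5 or 30 weeks were 11.0, 16.9 and 23.9 CPM (lowest, median, highest) in *WT* and 12.9, 19.8 and 28.9 CPM in *iRhom2-/-* mice. At 8 weeks its lowest, median and highest sums were 14.9, 14.9 and 16.7 CPM in *WT* and 15.5, 19.3 and 19.6 CPM in *iRhom2-/-* mice, and at 10 weeks 22.3, 22.3 and 24.01 CPM in *WT* and 21.5, 22.04 and 23.1 CPM in *iRhom2-/-* mice. *Erbb2* moved most with the horizontal basal cell list, 6 genes led by *Krt5*, with an r of 0.82 over 24 libraries, 0.45 in those of 8 and 10 weeks and 0.93 in those of 5 or 30 weeks. At 8 weeks this list summed to 212, 153 and 152 CPM in *WT* and 148, 198 and 136 CPM in *iRhom2-/-* mice. At 10 weeks it summed to 130, 150 and 143 CPM in *WT* and 169, 184 and 173 CPM in *iRhom2-/-* mice, with no overlap. There 5 of 6 genes were higher (median 0.15), with 0 called by edgeR and 2 by DESeq2 (1.54% of all genes). The genotypes overlapped at 8 weeks and at 5 or 30 weeks. In the libraries of 8 and 10 weeks the r of *Erbb3*, *Areg* and *Egfr* with the immature neuron list had the opposite sign, and the r of *Erbb3* with the tuft-like list and of *Erbb2* with the basal cell list was lower. *Tgfa* had an r of 0.83 with the tuft-like list (0.42 at 8 and 10 weeks, 0.90 at 5 or 30 weeks) and of -0.84 with the fibroblast list (-0.34 and -0.94). *Areg* and the fibroblast list had an r of -0.56 over 24 libraries, 0.85 at 8 and 10 weeks and -0.92 at 5 or 30 weeks. The fibroblast list summed to 3419, 2976 and 3291 CPM in *WT* and 5342, 4276 and 5682 CPM in *iRhom2-/-* mice of 10 weeks, with no overlap. There 5 of 5 genes were higher (median 0.43), with 0 called by edgeR and 3 by DESeq2 (1.54% of all genes). At 8 weeks 5 of 5 were lower (median -0.23), and the sums overlapped there and at 5 or 30 weeks. The part of cell composition, or of age within the set of 5 or 30 weeks, in the levels of these members was not tested.

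Among themselves, the members were compared by the correlation of log2 CPM with group means removed, for 28 pairs of the 8 members tested. These values are a description, since all genes of a library share its dissection, depth and scaling. Mice of 5 and of 30 weeks form 1 group per genotype, so a difference between those ages remains in the values of that set. The 3 receptors moved together. *Erbb2* and *Erbb3* had the highest r, 0.85 over 24 libraries (rho 0.83, 0.76 without the 2 farthest libraries), with 0.56 in the 12 libraries of 8 and 10 weeks and 0.90 in the 12 of 5 or 30 weeks. *Egfr* and *Erbb3* had an r of 0.74 (rho 0.82, 0.69 without the 2 farthest), with 0.63 and 0.78 in the same sets. *Egfr* and *Erbb2* had an r of 0.66 (rho 0.73, 0.69 without the 2 farthest), with 0.67 and 0.66.

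Of the pairs of a ligand and a receptor, *Tgfa* and *Erbb3* had the highest r, 0.75 (rho 0.83, 0.77 without the 2 farthest), with 0.76 in the libraries of 8 and 10 weeks and 0.76 in those of 5 or 30 weeks. *Areg* and *Egfr* had an r of 0.71 (rho 0.68, 0.68 without the 2 farthest), with 0.39 and 0.83. Several pairs had a much lower r at 8 and 10 weeks than at 5 or 30 weeks: *Tgfa* and *Areg*, with an r of 0.56 over 24 libraries but -0.41 at 8 and 10 weeks and 0.86 at 5 or 30 weeks, *Areg* and *Erbb3*, with 0.60, -0.021 and 0.74, *Tgfa* and *Erbb2*, with 0.59, 0.071 and 0.72, *Areg* and *Erbb2*, with 0.60, 0.26 and 0.70, and *Tgfa* and *Egfr*, with 0.57, 0.29 and 0.65. *Egf* was apart from the other members, its highest r over 24 libraries being 0.19, with *Btc* (0.75 at 8 and 10 weeks, -0.50 at 5 or 30 weeks). That value rested on the 2 libraries rich in *Bpifb9b*, without which it was -0.15, and it was -0.017 without the 2 farthest libraries.

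**Figure D3:**
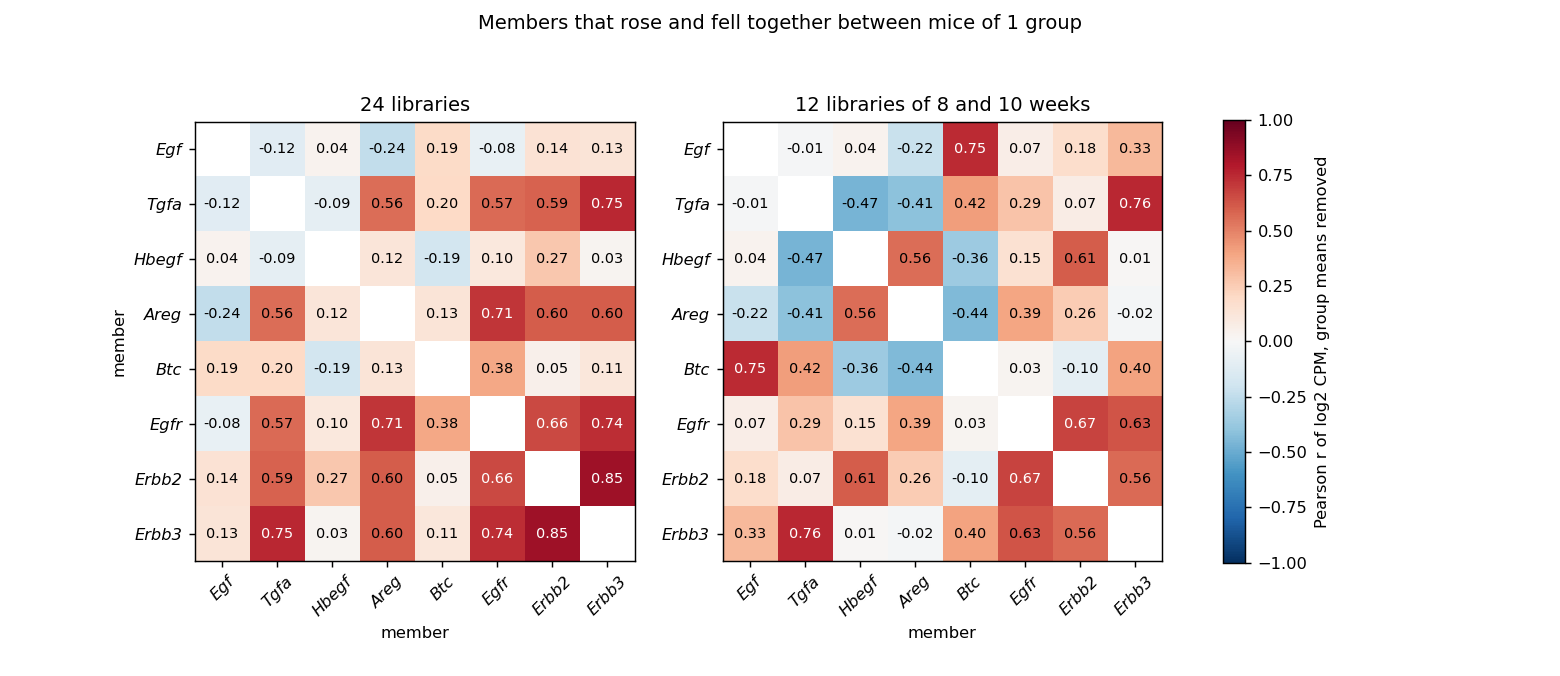
Pearson r of log2 CPM with group means removed for the 28 pairs of members, over 24 libraries (left) and over the 12 of 8 and 10 weeks (right). *Erbb2* and *Erbb3* have the highest r over 24 libraries, 0.85, while *Tgfa* and *Areg* are at 0.56 on the left and -0.41 on the right.

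Among the other 20762 genes tested, those most like each receptor and the leading ligand over 24 libraries were listed by the same r. The genes most like *Egfr* were *Enpp4* (r 0.92, 0.84 at 8 and 10 weeks, 0.95 at 5 or 30 weeks), a gene deposited without a symbol, ENSMUSG00000079620 (0.91, 0.92, 0.93), and *Nt5dc3* (0.89, 0.80, 0.91). For *Erbb2* they were *Lamb3* (0.90, 0.44, 0.97), *Clic6* (0.87, 0.61, 0.92) and *Bahd1* (0.86, 0.55, 0.92), each weaker at 8 and 10 weeks. For *Erbb3* they were *Clip1* (0.94, 0.83, 0.96), *Clic6* (0.92, 0.92, 0.92) and *Pak4* (0.92, 0.68, 0.96). *Clic6* was on the lists of both *Erbb2* and *Erbb3*. For *Tgfa* they were *Gldn* (0.94, 0.89, 0.96), *Mfap3l* (0.93, 0.84, 0.95) and *Slc35a3* (0.93, 0.90, 0.94). For *Egf*, added after its values were seen, they were *Lman1* (0.91, 0.98, 0.75), *Bhlha15* (0.89, 0.88, 0.94) and *Atp2a3* (0.88, 0.88, 0.92), and without the 2 libraries rich in *Bpifb9b* these had an r of 0.80, 0.82 and 0.77. An r above 0.5 was reached by 10.6% of all genes for *Egfr*, 10.5% for *Erbb2*, 14.8% for *Erbb3*, 14.0% for *Tgfa* and 2.98% for *Egf*.

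Promoter sequences are shown for the receptors *Egfr* and *Erbb2* and for *Tgfa*, the ligand of the highest level. In the RefSeq promoter table (GRCm38.p6, 250 bases before to 50 after the gene start) 7 of the 10 members had an entry, among them *Areg*, which is not shown, and *Hbegf*, *Ereg* and *Erbb3* had none. Each is on the plus strand, at chr11:16751953-16752252 for *Egfr*, chr11:98412234-98412533 for *Erbb2* and chr6:86194972-86195271 for *Tgfa*. Capitals mark matches on either strand to the GC box, searched as GGGCGG, or the TATA box, searched as TATAAA.
Egfr: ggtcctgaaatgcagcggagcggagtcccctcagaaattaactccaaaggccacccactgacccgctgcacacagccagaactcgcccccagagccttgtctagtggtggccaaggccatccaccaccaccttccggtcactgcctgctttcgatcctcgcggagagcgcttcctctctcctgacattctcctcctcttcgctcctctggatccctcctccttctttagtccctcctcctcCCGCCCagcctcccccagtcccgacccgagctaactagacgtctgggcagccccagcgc
Erbb2: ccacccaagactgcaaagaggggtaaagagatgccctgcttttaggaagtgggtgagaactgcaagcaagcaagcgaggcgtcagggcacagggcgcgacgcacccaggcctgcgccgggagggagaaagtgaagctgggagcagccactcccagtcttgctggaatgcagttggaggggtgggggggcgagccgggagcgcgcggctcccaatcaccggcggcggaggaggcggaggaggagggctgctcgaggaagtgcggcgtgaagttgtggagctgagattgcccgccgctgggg
Tgfa: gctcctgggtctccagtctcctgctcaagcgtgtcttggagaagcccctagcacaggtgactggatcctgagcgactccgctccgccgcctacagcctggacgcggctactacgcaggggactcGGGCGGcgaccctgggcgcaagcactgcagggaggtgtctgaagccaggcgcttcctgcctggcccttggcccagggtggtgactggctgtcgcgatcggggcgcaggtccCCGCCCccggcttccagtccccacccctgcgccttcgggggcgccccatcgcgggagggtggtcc
The GC content was 62.3% for *Egfr*, 66% for *Erbb2* and 70.7% for *Tgfa*, each above the median of all promoters, 52.7%. GGGCGG matched 1 time in *Egfr*, 0 times in *Erbb2* and 2 times in *Tgfa*, and 35.7% of 32851 promoters held it. TATAAA matched in none of the 3, and 13.6% of all promoters held it. A match is a description of the letters only.

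Genes that act on the ligands before release were read beside the members. *Rhbdf1*, which encodes the related iRhom1, ran from 17.7 to 23.5 CPM (median 21.5) in *WT* and from 18.8 to 24.3 CPM (median 20.6) in *iRhom2-/-* mice. The ranges overlapped, and the log2 difference over 24 mice was -0.029 (SE 0.047, adjusted p 0.876). *Adam17*, which encodes the protease, was at 46.9, 36.3 and 34.8 CPM in *WT* and 32.4, 27.8 and 32.1 CPM in *iRhom2-/-* mice of 8 weeks. Each *iRhom2-/-* library lay below every *WT* library, and the difference was -0.36 (SE 0.13, unadjusted p 0.0258, adjusted p 0.189, adjusted p by DESeq2 0.0873). Without *WT* mouse 1, a library rich in *Bpifb9b*, it was -0.22 (adjusted p 0.260). Over 24 mice the difference of *Adam17* was -0.087 (adjusted p 0.628), at 10 weeks it was -0.044 and at 5 or 30 weeks it was 0.027, with 4 of 6 *iRhom2-/-* libraries above the *WT* mean. The interaction of genotype and set had an unadjusted p of 0.0440 (adjusted p 0.378). Over the mice of 8 and 10 weeks alone the difference was -0.20 (adjusted p 0.463). Its exons share 311 bases with *Iah1* on the opposite strand. *Erbb4*, the remaining receptor of the family, was at most 1.77 CPM in any library, with a difference of -0.16 (SE 0.43, adjusted p 0.928).

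The other genes of the pathway were read as 5 lists, beside all genes, of which edgeR called 1.97% over 24 mice and 12.4% had an unadjusted p under 0.05. Of the other ERBB family genes, *Erbb4* and the neuregulins, 5 were tested over 24 mice and edgeR called 0, with 1 at an unadjusted p under 0.05 and 0 called by DESeq2, beside 3.97% of all genes. Their median log2 difference was -0.15, beside -0.0011 for all genes. The smallest p among those lower in *iRhom2-/-* mice was that of *Nrg3*, at -1.61 (SE 0.63, adjusted p 0.265), a transcript of at most 15 counts per library whose median was 0.148 CPM in *WT* and 0 in *iRhom2-/-* mice. *Nrg4*, at 0.0089 (adjusted p 0.990), was the 1 gene that was higher.

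Of 14 genes for shedding and trafficking of ligands, edgeR called 1 over 24 mice, *Rhbdf2* itself, which was lower, with 3 at an unadjusted p under 0.05 and a median of -0.032. DESeq2 called 2, *Rhbdf2* and *Rhbdl2*, beside 3.97% of all genes. *Rhbdl2*, which encodes a rhomboid protease and was chosen after its values were seen, had a difference of -0.61 (SE 0.21, adjusted p by edgeR 0.186, by DESeq2 0.0760), with 10 of 12 *iRhom2-/-* libraries below the *WT* mean of their set. Within the sets edgeR called *Rhbdf2* and no other gene of this list, and DESeq2 called 3 genes at 8 weeks, 1 at 10 weeks and 3 at 5 or 30 weeks, beside 11.4%, 1.54% and 4.96% of all genes.

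Of 20 genes for receptor adaptors and the MAP kinase relay, edgeR called 0 over 24 mice, with 0 at an unadjusted p under 0.05, a median of -0.025 and 0 called by DESeq2. The smallest p among genes higher in *iRhom2-/-* mice was that of *Plcg1*, at 0.11 (SE 0.072, adjusted p 0.471), and among those lower that of *Ptpn11*, at -0.077 (adjusted p 0.642), or -0.23 over the mice of 8 and 10 weeks alone (adjusted p 0.173). At 8 weeks edgeR called 1 gene of this list, beside 4.98% of all genes: *Map2k2*, chosen after its values were seen, at 0.23 (SE 0.057, adjusted p 0.0910), a call made in 1 of 6 fits with a library left out. At that age 5 of the 20 had an unadjusted p under 0.05, beside 19.8% of all genes, and DESeq2 called 3, beside 11.4%.

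Of 10 inhibitors of the receptor, edgeR called 1 over 24 mice, *Socs5*, which encodes a protein that targets EGFR for degradation. *Socs5* ran from 64.5 to 81.8 CPM (median 74.1) in *WT* and from 57.2 to 79.2 CPM (median 65.6) in *iRhom2-/-* mice. The ranges overlapped, but at 10 weeks, with 81.8, 78.8 and 78.1 CPM in *WT* and 74.8, 58.8 and 64.8 CPM in *iRhom2-/-* mice, the groups did not. Of the *iRhom2-/-* libraries 10 of 12 lay below the *WT* mean of their set, and the log2 difference was -0.17 (SE 0.048, adjusted p 0.0901). This call was not steady: with each library left out in turn it was made in 7 of 24 fits. The list had 1 gene at an unadjusted p under 0.05, a median of -0.0060 and 1 call by DESeq2. By set, 7 of 10 genes were lower in *iRhom2-/-* mice at 8 weeks and at 10 weeks (medians -0.11 and -0.10), and 8 of 10 were higher at 5 or 30 weeks (median 0.10). An unadjusted p under 0.05 was found for 2 of 10 genes at 8 weeks, 1 at 10 weeks and 4 at 5 or 30 weeks, beside 19.8%, 7.79% and 14.2% of all genes, with 0 called by edgeR in each set and 1, 0 and 0 by DESeq2.

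Of 16 transcripts that rise with ERK signalling, edgeR called 1 over 24 mice, *Spred1*, which encodes a feedback inhibitor of RAS signalling. *Spred1* ran from 46.7 to 75.2 CPM (median 62.5) in *WT* and from 43.2 to 63.02 CPM (median 56.6) in *iRhom2-/-* mice. The ranges overlapped over all sets and at 5 or 30 weeks, with 10 of 12 *iRhom2-/-* libraries below the *WT* mean of their set. At 8 weeks *Spred1* was at 71.7, 71.01 and 75.2 CPM in *WT* and 63.02, 57.9 and 61.3 CPM in *iRhom2-/-* mice, and at 10 weeks at 56.7, 69.4 and 57.6 CPM in *WT* and 50.4, 43.2 and 48.9 CPM in *iRhom2-/-* mice, with no overlap in either set. The log2 difference over 24 mice was -0.19 (SE 0.051, adjusted p 0.0659). With each library left out in turn the call was made in 10 of 24 fits. The list had 4 genes at an unadjusted p under 0.05, a median of -0.097 and 2 calls by DESeq2, *Spred1* and *Dusp5*. At 8 weeks edgeR called 2 of its 16 genes, beside 4.98% of all genes, and DESeq2 called 3, beside 11.4%. The 2 were *Spred1* at -0.26 (adjusted p 0.0712) and, chosen after its values were seen, *Dusp5* at 0.66 (SE 0.12, adjusted p 0.0517). With a library left out, *Spred1* was called in 1 of 6 fits at 8 weeks and *Dusp5* in 2 of 6. At 8 weeks 2 of the 16 had an unadjusted p under 0.05, beside 19.8% of all genes, and at 5 or 30 weeks 2, beside 14.2%, with 0 called there by edgeR or DESeq2. At 10 weeks edgeR called 0 of the 16, with 7 at an unadjusted p under 0.05 beside 7.79% of all genes, and DESeq2 called 2 beside 1.54%, *Fos* and *Etv5*, named after their values were seen. In the same comparison 5 of 6 neutrophil genes had an unadjusted p under 0.05. So did 3 of 5 genes each of fibroblasts, ensheathing glia and olfactory bulb neurons. Their medians were 0.89, 0.43, -0.51 and -2.04, with 0 called by edgeR and 1, 3, 2 and 2 by DESeq2. Each other marker list had 0 to 2 genes at that p. The part of these cell types in the ERK list was not tested. Of the 16 genes 11 were lower in *iRhom2-/-* mice over 24 mice, 9 at 8 weeks, 10 at 10 weeks and 10 at 5 or 30 weeks.

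**Figure D4:**
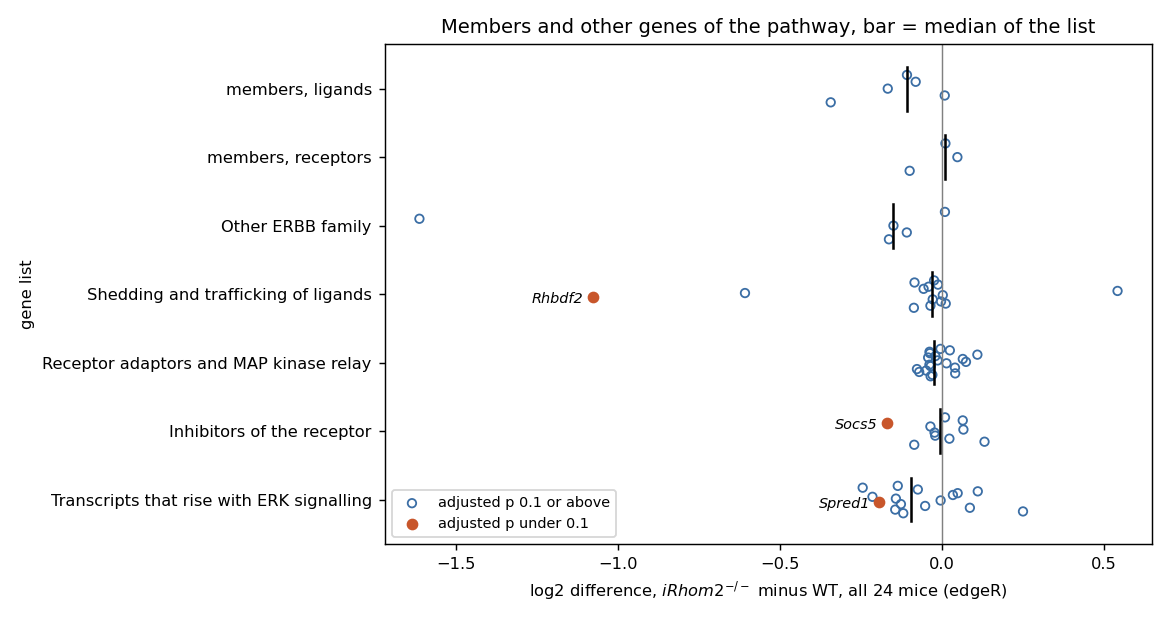
Log2 difference over 24 mice, *iRhom2-/-* minus *WT*, of each tested member and each tested gene of the 5 pathway lists, with a bar at the median of the list and filled points for genes called by edgeR. *Rhbdf2*, at -1.08, *Socs5*, at -0.17, and *Spred1*, at -0.19, were called.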

How the data were processed

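The data are bulk RNA sequencing of the main olfactory epithelium, with poly(A) selection and a directional library per mouse. The authors aligned the reads to GRCm38 with STAR and quantified genes with RSEM, and the deposited value of each gene and library is an estimated count, given as a whole number. The deposited table also holds the authors' log fold change, p-value and false discovery rate for 12 against 12 mice, which were not used. The members and lists were chosen with earlier results of these data known.

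All 45706 genes entered edgeR 4.0.16 in R 4.3.3, with its expression filter, TMM scaling and quasi-likelihood test, and p-values were adjusted by Benjamini-Hochberg over all genes tested, with calls under 0.1. DESeq2 1.42.0 was run on the same genes. Comparisons were *iRhom2-/-* minus *WT* over 24 mice with set as a term, within each of the 3 sets, and the interaction of genotype and set. Correlations used log2 CPM with a prior count of 2. Genes named from a pathway list were those called over 24 mice, or with no call the smallest p in each direction, and the 3 genes most like each receptor and the ligand of highest mean CPM were named. *Ereg* and *Epgn*, left out by the filter, were compared by an exact permutation test within sets over 369600 arrangements. Lengths and overlaps came from the GRCm38 annotation. The code was tested on simulated data. Alternatives covered the scaling, filter, test, threshold, set term, replicate block and leaving out each library.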

Additional observations from a re-analysis of the deposited data

Results flagged for a closer look

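In groups of 6 libraries, a library was taken to stand apart when the gap from the highest or lowest value to its nearest neighbour, as a share of the group's range, was above Dixon's 95% critical value, which chance alone passes in about 1 of 20 groups. Of 28 groups examined, for the 10 members and 4 context genes at 5 or 30 weeks, 4 passed. For *Epgn* the share was 0.761 in *WT* mice, where 1 library had 4 counts, and 1 in *iRhom2-/-* mice, where 1 library had 3 counts and the other 5 had 0. For *Erbb4* it was 0.709 in *WT* mice, where 1 library was at 1.60 CPM (50 counts), and 0.642 in *iRhom2-/-* mice, where 1 library was at 1.77 CPM (71 counts). *Epgn* was at or near the limit of detection in these libraries, whereas *Erbb4* held 9 to 50 counts in the *WT* and 1 to 71 in the *iRhom2-/-* libraries. No cause was tested.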

How the results depend on the processing

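Depth limits *Ereg* and *Epgn*, at 3 or fewer counts in 20 and 23 of 24 libraries, and with 3 mice per group a call depends on single libraries. Of the member differences, 87 of 96 values over 24 mice, 72 of 72 at 8 weeks, 72 of 72 at 10 weeks and 64 of 64 at 5 or 30 weeks kept their sign under the other settings. With each library left out in turn, 178 of 192, 48 of 48, 40 of 48 and 93 of 96 did. The number of members called was 0 in each of these, except under DESeq2 at 8 weeks, where it was 1 (*Egf*, -0.86, adjusted p 0.0568). The settings that leave out both libraries rich in *Bpifb9b*, scale by library totals, or refit the interaction or the correlations were chosen after seeing the data.

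The number of genes called over 24 mice, 410, was 234 at an adjusted p under 0.05, 824 by DESeq2, 132 with no set term, 106 in the mice of 8 and 10 weeks alone and 41 in those same mice with a block for replicate numbers, and with each library left out it ranged from 299 to 727, the highest without *iRhom2-/-* mouse 2 of 10 weeks. At 8 weeks 962 became 270 at 0.05, 2195 by DESeq2 (1172 up and 1023 down, against 626 and 336), 393 by library totals, 1454 with the replicate block and 404 with a shared spread, and ranged from 68 to 1300. Without *WT* mouse 2 or 3 or *iRhom2-/-* mouse 2 or 3 it was 103, 132, 68 and 75. At 10 weeks 37 became 289 by DESeq2, 58 with no filter and 178 by a likelihood ratio test, and ranged from 13 to 105. Without *WT* mouse 1, 2 or 3 or *iRhom2-/-* mouse 2 or 3 it was 20, 13, 14, 21 and 105. At 5 or 30 weeks 198 became 51 at 0.05, 916 by DESeq2, 119 with no filter and 344 by library totals (275 up and 69 down, against 120 and 78), and ranged from 52 to 241, with 9 of 12 of these past 1.5 times either way. The interaction's 10 became 495 by DESeq2 and ranged from 0 to 204, with 16 of 24 past 1.5 times. The cause was not tested.

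Signs reversed as follows. With no set term *Erbb3* was -0.0070. In the mice of 8 and 10 weeks alone *Tgfa* was -0.16, *Areg* 0.32, *Erbb2* -0.035, *Erbb3* -0.15, *Erbb4* 0.061 and *Plcg1* -0.0086. In those same mice with a replicate block, for which the same-numbered mice did not show pairing (r 0.0037 to 0.117 at 8 weeks and 0.0108 to 0.216 at 10 weeks), *Tgfa* was -0.16, *Areg* 0.35, *Erbb2* -0.031, *Erbb3* -0.15 and *Plcg1* -0.0045, signs that leaving out the mice of 5 or 30 weeks gave without the block. Without both libraries rich in *Bpifb9b* *Nrg4* was -0.036. The r of *Tgfa* and *Areg* was -0.41 and that of *Areg* and *Erbb3* -0.021 at 8 and 10 weeks, and that of *Egf* and *Btc* was -0.15 without both libraries and -0.065 by library totals.

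With each library left out, the difference over 24 mice ranged from -0.057 to 0.041 for *Tgfa*, -0.18 to 0.018 for *Areg*, -0.039 to 0.042 for *Erbb3*, -0.62 to 0.088 for *Erbb4* and -0.037 to 0.063 for *Nrg4*. At 10 weeks it ranged from -0.23 to 0.60 for *Egf*, -0.23 to 0.18 for *Areg*, -0.32 to 0.014 for *Btc* and -0.089 to 0.049 for *Erbb2*. At 5 or 30 weeks it ranged from -0.018 to 0.12 for *Egfr* and -0.12 to 0.0023 for *Btc*.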

Other observations

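Within the set of 5 or 30 weeks, *Tgfa* fell into separate ranges of 3 libraries each in *WT* mice, at 27.5 to 28.1 CPM and at 35.3 to 39.0 CPM, and likewise in *iRhom2-/-* mice, at 29.6 to 31.04 CPM and at 36.8 to 52.3 CPM. The immature neuron sums of the *WT* libraries of this set also lay in ranges of 3, at 610 to 646 CPM and at 914 to 1072 CPM, and those of the *iRhom2-/-* libraries at 638 to 703 CPM and at 1197 to 1315 CPM. The columns are not tied to age, so no age is given to these ranges.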
